A study of Saccharomyces cerevisiae with 35 samples.

Results

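The genes described here encode 32 subunits of the yeast 26S proteasome and its transcriptional activator, RPN4. SEM1 is not among them and was listed with the assembly and associated genes described below. They were chosen by name, as the gene columns of the 20S core (the PRE and PUP genes and SCL1), of the 19S regulatory particle (the RPT and RPN genes) and RPN4, and all 33 were present among the 5843 genes of the count table. They comprise 7 alpha and 7 beta subunits of the 20S core, 6 ATPases and 4 other subunits of the 19S base, 8 subunits of the 19S lid, and RPN4. Each gene was matched by its locus tag.

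Saccharomyces cerevisiae in the FY4/5 background was grown in the rich medium YPD at 30 °C, with 72 wild-type strains and 6 strains lacking FPR1 pooled in a single flask. FPR1 encodes the small protein through which rapamycin binds and inhibits TORC1, the kinase complex that drives growth in rich medium, so the deletion strains met the drug in the same culture without its receptor. Cells were drawn off continuously in 10-min intervals, 2 before the drug (a first untreated interval from -20 to -10 min and a second from -10 to 0 min) and 6 after the addition of 200 ng/mL rapamycin, from 2 replicate cultures, which gave 16 single-cell libraries made with 3′ end chemistry and unique molecular identifiers (UMIs). A further 3 wild-type cultures were sampled in bulk at 0 min and at 10 times from 2.5 to 120 min after the drug. The deletion strains share the pool, the flask and the collection vessel with the wild type, and the sources used here do not say how the genotypes of single cells were told apart.

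The 26S proteasome degrades proteins that carry ubiquitin chains. The 20S core is a barrel of stacked rings: outer alpha rings gate the entrance, and inner beta rings hold the proteolytic sites on Pre3, Pup1 and Pre2. The 19S particle binds ubiquitinated substrates, removes the ubiquitin (Rpn11) and unfolds and feeds in the protein with its ring of ATPases (Rpt1 to Rpt6). Rpn4 is a short-lived zinc-finger protein, itself degraded by the proteasome, that activates the subunit genes through an upstream sequence called the proteasome-associated control element (PACE). In yeast, inhibition of TORC1 is known to shut down ribosome synthesis and to raise protein breakdown, and proteasome abundance after TORC1 inhibition is known to depend on the kinase Slt2 (Mpk1) and on assembly chaperones such as Tma17 (Adc17).

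The PACE letters GGTGGCAAA, searched on both strands from 250 bases before to 50 bases after each start codon in the RefSeq genome (assembly R64), were found in 27 of the 32 subunit windows and in 71 of all 5788 windows (1.23%). The subunits without them were PRE5, PUP1, RPN8, RPN10 and RPN13, and RPN4 itself had none. The windows of these subunits held near matches that an exact search misses. These were agtggcaaa in PRE5, PUP1 and RPN8, ggtggcgaa in RPN13, and its reverse complement ttcgccacc in RPN10. A match in a window is a description of its letters, not evidence of binding. The matches lay 84 to 183 bases before the start codon (median 120), 19 on the strand of the gene and 8 on the opposite strand. The sites of the 9 subunits with PACE that are described library by library below are shown, since the results turn on these genes, with that of UBI4, a polyubiquitin gene used for contrast. Each is printed 5′ to 3′ so that PACE, in capitals, reads forward, with 10 bases on each side.
PRE2: acagcaaaagGGTGGCAAAacgaagaata
PRE3: aacggaatccGGTGGCAAAaaagggaaaa
RPN11: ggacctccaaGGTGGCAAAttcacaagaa
PRE6: tttcccttccGGTGGCAAAagaatcttcg
RPT2: gtttttctccGGTGGCAAAtgtctctttt
RPT3: ctgaaagtaaGGTGGCAAAatagtaaatc
RPN2: atttattttcGGTGGCAAAactggataca
RPN7: atcctcaatgGGTGGCAAActtaacttat
RPN9: gctttcatccGGTGGCAAAagtaagaaca
UBI4: cgaattcaaaGGTGGCAAAacccggagcc
Their R64 positions are chrXVI:732184-732212 for PRE2, chrX:435035-435063 for PRE3, chrVI:153259-153287 for RPN11, chrIV:437906-437934 for RPT2, chrIV:1261495-1261523 for RPT3, chrIV:1322086-1322114 for RPN9 and chrXII:65349-65377 for UBI4, all on the plus strand. The sites of PRE6 (chrXV:255218-255246), RPN2 (chrIX:220801-220829) and RPN7 (chrXVI:742290-742318) are printed from the minus strand. All lie upstream of the coding sequence of their gene. The base after the capitals was A in 18 of the 27 subunit sites, T in 8 and C in 1, that of RPN7.

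The single-cell table held 173347 cells, 162529 wild type and 10818 with the deletion. UMIs were summed per genotype and library, giving 32 sums of 3993298 to 69114350 UMIs (1693 to 14688 cells) for the wild type and of 1501368 to 5191196 UMIs (444 to 911 cells) for the deletion. FPR1 in the deletion sums stood at 1.03% to 7.91% of its wild-type level in the same library. Whether these FPR1 counts came from wild-type RNA or wild-type cells was not tested. In an alternative fit below, this percentage was taken as the wild-type share and subtracted. In all, 3646 cell barcodes occurred in more than 1 library, and any 2 libraries shared at most 0.648% of the barcodes of the smaller one. Levels below are UMIs per 1000000 UMIs of the library (CPM), scaled with TMM, a method that assumes most genes to be unchanged. Changes are log2 differences between a treated interval and the mean of the 2 untreated intervals of the same genotype, tested with edgeR's quasi-likelihood F-test over 5549 genes, and a gene is called when its Benjamini-Hochberg adjusted p is below 0.05. By that rule 41.9% of genes were higher and 36.0% lower in the wild type at 50 to 60 min. Most genes were therefore not unchanged there, as TMM assumes. Before rapamycin, no subunit and not RPN4 was called between the genotypes in edgeR's test (2 of 32 subunits had an unadjusted p under 0.05, and DESeq2 called 0), where 0.541% of all genes were called.

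RPN4 (YDL020C, chrIV:415113-416708, minus strand) fell early and partly came back in wild-type cells. In culture 1 its level was 90.7 and 90.1 CPM in the untreated intervals, then 76.7, 36.1, 29.8, 37.7, 50.4 and 62.6 in the 6 successive intervals after rapamycin. In culture 2 the untreated levels were 100.1 and 102, followed by 75.5, 39.0, 32.9, 42.3, 56.0 and 63.5. Both cultures were lowest at 20 to 30 min and higher again in each interval after it, and every treated library lay below every untreated one. The log2 change was -0.33 at 0 to 10 min (SE 0.13, adjusted p = 0.0769 in edgeR's test, n = 2 cultures), -1.35 at 10 to 20 min (SE 0.14, adjusted p = 1.3e-08) and -1.61 at 20 to 30 min (SE 0.14, adjusted p = 6.03e-10). It was then -1.26, -0.85 and -0.60 (SE 0.13, adjusted p = 0.000291) in the last 3 intervals, all called. The largest single step lay between 0 to 10 and 10 to 20 min, at -1.02 (adjusted p = 8.68e-06, edgeR), and no later step of RPN4 passed the test. Per cell that step was -0.76 and not called (adjusted p = 0.195).

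The early fall of RPN4 kept its call under every normalization at 10 to 20 min and 20 to 30 min, but its later level depended on the scale. As a share of all UMIs in the library, without TMM, the log2 change was -0.96 at 10 to 20 min and -0.94 at 20 to 30 min, both called. It was -0.47 at 30 to 40 min (adjusted p = 0.0550, edgeR), 0.02 at 40 to 50 min and 0.22 at 50 to 60 min, so that on this scale RPN4 was back at its untreated share. On the scale of UMIs per cell the changes at 40 to 50 and 50 to 60 min were negative and not called, at -0.42 and -0.60. With the culture number as a block, the change of -0.33 at 0 to 10 min passed the test (adjusted p = 0.0120), and DESeq2 also called it (-0.36, adjusted p = 0.0147).

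RPN4 in the deletion strains fell later on the TMM scale. In culture 1 the untreated levels were 100.04 and 98.1 CPM, and the treated ones 90.7, 76.4, 57.4, 51.8, 46.3 and 47.1. In culture 2 they were 94.3 and 99.6, then 85.3, 89.8, 67.3, 73.6, 65.8 and 50.0. All treated sums again lay below the untreated ones, but at 10 to 20 min the deletion stood above the wild type of the same library in both cultures. The log2 change was -0.23 at 10 to 20 min, not called, and -0.64, -0.64, -0.81 and -1.01 in the last 4 intervals, called in each with adjusted p of 0.0250, 0.0165, 0.00131 and 0.000279 in edgeR's test. The calls at 20 to 30 and 30 to 40 min were lost under several settings, among them library totals, UMIs per cell and subtraction of the wild-type share. They were also lost without single libraries: at 20 to 30 min the adjusted p was 0.0779 without the first untreated sum of culture 1, 0.053 and 0.057 without the second untreated sum of culture 1 or 2, and 0.182 and 0.150 without the treated sum of culture 1 or 2. For the 30 to 40 min change, culture 1 decided: the adjusted p was 0.0624 if its first untreated sum was left out and 0.335 if its treated sum was. The call at 40 to 50 min was lost on library totals (-0.60, adjusted p = 0.115) and with only the groups compared (adjusted p = 0.0614). Per cell none of the 4 calls remained, with changes of -0.24, -0.002, -0.07 and -0.37 (adjusted p = 0.674, 0.996, 0.857 and 0.352, edgeR), and the change at 10 to 20 min was 0.14.

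On the TMM scale RPN4 fell further in the wild type than in the deletion in the early intervals. Tested as an interaction (the wild-type change minus the deletion change), the difference was -1.12 at 10 to 20 min (adjusted p = 6.13e-05, edgeR), -0.97 at 20 to 30 min (adjusted p = 0.000277) and -0.62 at 30 to 40 min (adjusted p = 0.00906). At 40 to 50 min it was -0.03 and at 50 to 60 min 0.41 (adjusted p = 0.0741), which passed with the culture or the library as a block (0.40, adjusted p = 0.0258 and 0.0171). On library totals the first 3 values were -0.74 (adjusted p = 0.0709), -0.40 (adjusted p = 0.297) and 0.03, none called, and the last was 1.05 (adjusted p = 0.00707). Per cell the difference was -1.30 at 10 to 20 min (adjusted p = 0.0532) and -1.10 at 30 to 40 min (adjusted p = 0.0696), neither called. The call at 30 to 40 min was also lost without the treated sum of culture 2 (adjusted p = 0.0986) and with sums thinned to equal depth (adjusted p = 0.0957). Of all genes, 4.69% were called in either direction in the interaction at 0 to 10 min, where RPN4 was at -0.18 and not called. At 10 to 20 min 20.4% of all genes were called lower in the interaction, and at 20 to 30 min 24.6%.

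**Figure D1:**
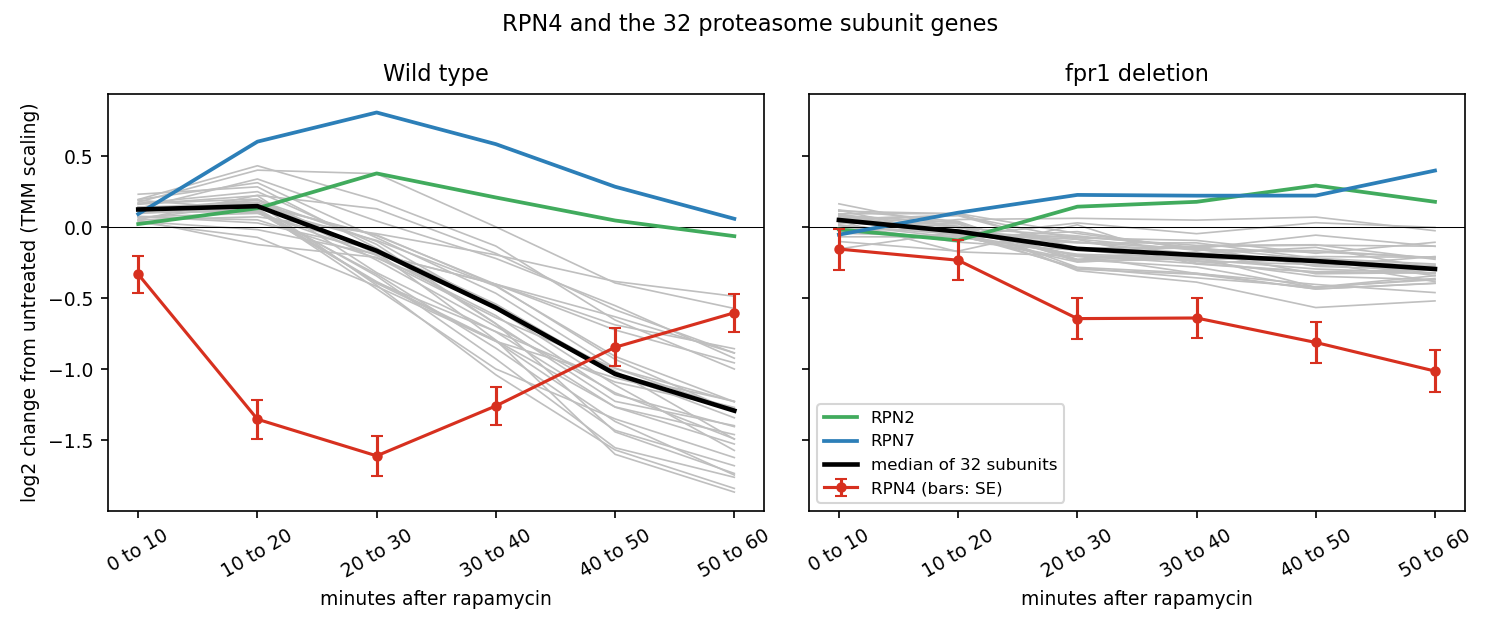
Log2 change from untreated on the TMM scale (y axis) by interval after rapamycin (x axis, min) in the wild type (left) and the fpr1 deletion (right), for RPN4 (red, bars: SE), RPN7 (blue), RPN2 (green), each other subunit (grey) and the median of the 32 subunits (black). Wild-type RPN4 is lowest at 20 to 30 min (-1.61), when the subunit median is at -0.17, and the subunit median is lowest at 50 to 60 min (-1.29).

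The subunits followed another course. In the wild type on the TMM scale all 32 lay slightly above their untreated level at 0 to 10 min (median log2 change 0.12), and 29 did at 10 to 20 min (median 0.15). From 20 to 30 min on, the medians were -0.17, -0.57, -1.03 and -1.29, against a median over all genes tested that did not leave the range from -0.01 to 0.11. On library totals the medians were higher throughout, at 0.25, 0.54, 0.50, 0.22, -0.16 and -0.46, so the sign differed between the scales at 20 to 30 and 30 to 40 min. The all-gene median on library totals rose in parallel, to 0.12, 0.43, 0.75, 0.89, 0.98 and 0.94. From 20 to 30 min on, the subunit median lay below the all-gene median on both scales.

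No subunit was called at 0 to 10 min on the TMM scale, where 10.2% of all genes were called higher and 9.50% lower by edgeR (0 of the 32 subunits had an unadjusted p under 0.05, and DESeq2 called 0). At 10 to 20 min 4 of 32 were called higher (background 32.2%) and none lower (background 28.5%). At 20 to 30 min 3 were called higher (background 37.7%) and 7 lower (background 32.4%), shares that are below the background. The number called lower then went to 25, 30 and 30 in the last 3 intervals, against backgrounds of 34.0%, 35.1% and 36.0%. Only RPN7 was called higher at 30 to 40 and at 40 to 50 min, and no subunit was at 50 to 60 min, against 40.9%, 41.7% and 41.9% of all genes. The 7 calls at 20 to 30 min became 2 if the second untreated library of culture 2 was left out, and also 2 if the treated library of culture 1 was. With the culture number as a block 8 were called higher at 10 to 20 min and 11 lower at 20 to 30 min. The 1 called higher at 30 to 40 min became 2 if the first untreated library of culture 1 was left out.

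The scale decided how many subunits were called. On library totals 21 of 32 were called higher at 10 to 20 min, followed by 16 and 8 in the next 2 intervals, with none lower, where 48.8%, 63.1% and 66.2% of all genes were called higher. At 40 to 50 min 4 were higher (RPT2, RPN2, RPN13 and RPN7) and 5 lower, and at 50 to 60 min 2 were higher (RPN2 and RPN7) and 15 lower, against 67.0% and 64.8% of all genes called higher and 15.9% and 17.1% called lower in these intervals. As UMIs per cell, RPN7 alone was called higher at 10 to 20 and at 20 to 30 min, where 23.1% and 28.0% of all genes were. In the last 3 intervals 1, 6 and 26 were called lower, against 19.6%, 17.4% and 25.2% of all genes, with medians of -0.42, -0.57 and -1.24. The final interval had more subunits called lower than higher on each of the 3 scales.

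**Figure D2:**
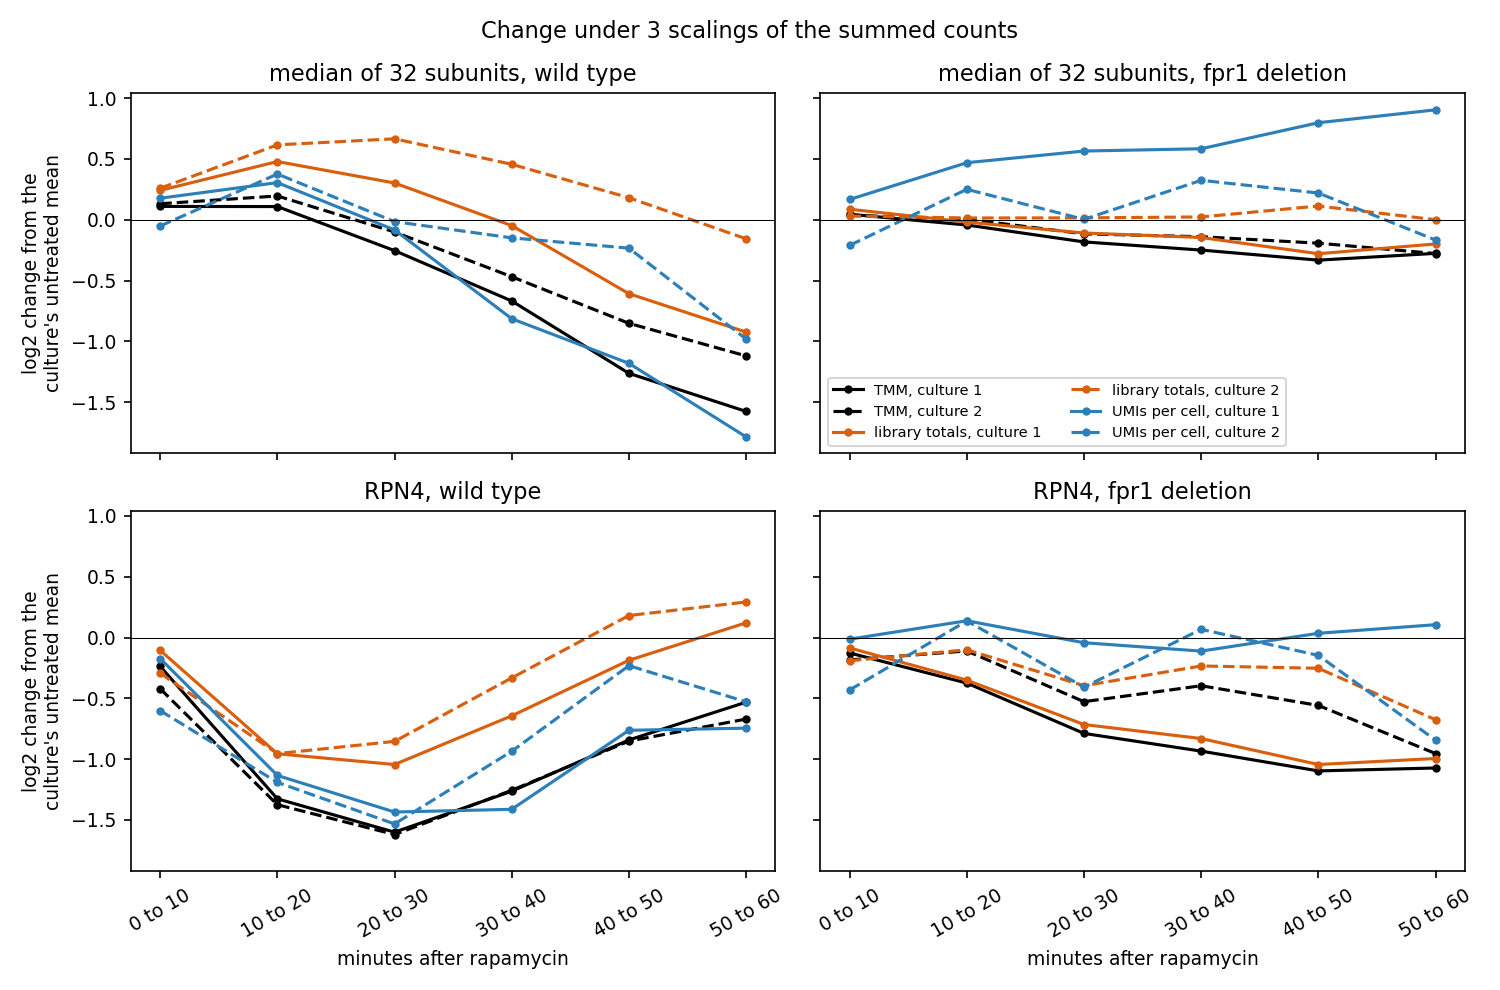
Log2 change from the untreated mean of the same culture (y axis) by interval after rapamycin (x axis, min), for the median of the 32 subunits (top) and RPN4 (bottom) in the wild type (left) and the deletion (right), on TMM (black), library totals (orange) and UMIs per cell (blue), with culture 1 solid and culture 2 dashed. At 20 to 30 min the wild-type subunit median is -0.25 and -0.10 on TMM but 0.30 and 0.67 on library totals, and at 50 to 60 min it is below 0 on each scale in both cultures.

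The share of the library that the 32 genes took together needs no model and follows the scale of library totals. In wild-type culture 1 it was 0.594% and 0.567% of all UMIs before rapamycin, and 0.685%, 0.812%, 0.762%, 0.594%, 0.414% and 0.340% after it. In culture 2 it was 0.566% and 0.591%, then 0.693%, 0.904%, 0.929%, 0.827%, 0.707% and 0.568%. Both cultures rose and then fell, but culture 2 peaked an interval later and ended at its untreated share while culture 1 ended well below it. The mean was 0.858% ± 0.0653 (SD, n = 2) at 10 to 20 min and 0.454% ± 0.161 at 50 to 60 min. In the same wild-type libraries the 137 ribosomal protein genes fell from 39.0% to 3.19% of UMIs in culture 1 and from 41.4% to 3.78% in culture 2. Their part in the rise and fall of the subunit share was not tested. In the deletion the subunit share ran from 0.595% to 0.498% in culture 1 and from 0.611% to 0.647% in culture 2, and that of the ribosomal protein genes from 40.1% to 32.1% and from 39.5% to 29.4%. Fewer transcripts per cell and a larger total of other transcripts cannot be told apart in such shares.

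Among the alpha subunits, all 7 were called lower in the wild type at 50 to 60 min (median -1.28). They spread from PRE6 at -0.86 to PRE5 at -1.86, with SCL1 at -1.23, PRE8 at -1.29, PRE9 at -1.22, PUP2 at -1.28 and PRE10 at -1.40. PRE5 (YMR314W, alpha6) stood at 347 and 346 CPM before rapamycin in culture 1 and at 375, 376, 289, 191, 99.2 and 80.7 after it. Its culture 2 values were 329 and 352, then 377, 400.3, 319, 204, 127 and 107. The treated levels of PRE5 exceeded all untreated ones up to 20 min and lay below all of them from 20 min on, ending at -1.86 (SE 0.11, adjusted p = 9.77e-13, edgeR).

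PRE6 (YOL038W, alpha4), the alpha subunit with the smallest fall, had untreated levels of 413 and 387 in culture 1 and of 365 and 402 in culture 2. After rapamycin it had 436, 426, 336, 260.1, 189 and 176 CPM in culture 1 and 443, 474, 352, 333, 297 and 256 in culture 2. Both cultures ended below their untreated range, culture 1 lower than culture 2. Its change at 50 to 60 min was -0.86 (SE 0.16, adjusted p = 3.66e-05, edgeR), and it was not called on library totals (-0.01) or per cell (-0.79, adjusted p = 0.0646). PRE8 (YML092C, alpha2) was the only alpha subunit called higher at 10 to 20 min, at 0.31.

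The beta subunits had the lowest class median at 50 to 60 min, -1.53, with all 7 called lower. The values were PRE3 -0.998, PRE7 -1.46, PUP1 -1.49, PRE4 -1.53, PRE1 -1.57, PUP3 -1.74 and PRE2 -1.84. The class differences were not tested. At 20 to 30 min PRE2, PRE4, PRE7 and PUP3 were already called lower, at -0.41, -0.32, -0.38 and -0.39.

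PRE2 (YPR103W, beta5) carries the chymotrypsin-like site. In culture 1 it went from 198 and 195 CPM to 214, 218, 151, 93.4, 61.1 and 50.0, and in culture 2 from 211 and 221 to 240.4, 244, 159.6, 107, 77.6 and 64.3. Untreated and treated values did not overlap from 20 min on, and the final change was -1.84 (SE 0.13, adjusted p = 8.39e-12, edgeR). In the deletion PRE2 had 166 and 165 before and 158 in the last interval in culture 1, and 184 and 191 before and 144 in culture 2. The interaction for PRE2 at 50 to 60 min was -1.61 (adjusted p = 2.73e-08), the lowest among the subunits.

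PRE3 (YJL001W, beta1) carries the caspase-like site. Its wild-type levels were 312 and 306 CPM before rapamycin and 345, 399.9, 350.2, 276, 179 and 133 after it in culture 1, and 308 and 327, then 372, 446, 365, 296, 219 and 179.8 in culture 2. PRE3 rose higher and for longer than PRE2 before it fell: at 10 to 20 min the change was 0.43 (SE 0.11, adjusted p = 0.00142, edgeR), and at 50 to 60 min -0.998 (SE 0.12, adjusted p = 5.43e-08). On library totals the final change was -0.16 and not called, and per cell the early rise was 0.64 and not called. In the deletion PRE3 had 281 and 331 at 10 to 20 min, against 310.3 and 294 before rapamycin in culture 1 and 309.6 and 329.9 in culture 2.

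PUP1 (YOR157C, beta2) carries the trypsin-like site, and its window held no exact match to PACE. It went from 195 and 186 to 204, 210.2, 158, 105, 66.7 and 54.0 CPM in culture 1 and from 185 and 196 to 210.2, 225, 167, 129, 102 and 80.0 in culture 2. The change was 0.19 at 10 to 20 min, not called on the TMM scale and 0.59 and called on library totals (adjusted p = 0.0306, edgeR). At 50 to 60 min it was -1.49 (SE 0.15, adjusted p = 6.44e-09). The course of PUP1 was like that of PRE2, with an earlier fall than PRE3.

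All 6 base ATPases were called lower at 50 to 60 min on the TMM scale, with a median of -1.11. They ranged from RPT2 at -0.57 over RPT1 at -0.92, RPT5 at -0.95, RPT4 at -1.27 and RPT6 at -1.30 to RPT3 at -1.76. RPT3 (YDR394W) fell from 145 and 137 to 152, 152, 115, 74.1, 43.7 and 35.6 CPM in culture 1. In culture 2 it fell from 151 and 159 to 169, 172, 119, 81.6, 56.9 and 50.5. The treated levels of RPT3 lay below all untreated ones from 20 min on, and the last change was -1.76 (SE 0.14, adjusted p = 6.45e-11, edgeR).

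RPT2 (YDL007W), whose C-terminus helps to open the gate of the core, rose first. Culture 1 had 166 and 163 before rapamycin and 189, 215, 206, 159, 113 and 100.3 after it. Culture 2 had 153 and 164, then 176, 211, 214, 165, 133 and 116. RPT2 was called higher at 10 to 20 min (0.40, SE 0.09, adjusted p = 0.000891, edgeR) and at 20 to 30 min (0.38), and lower at 50 to 60 min (-0.57, SE 0.10, adjusted p = 1.99e-05). On library totals the last value was 0.26 and not called, and per cell neither the rise (0.60) nor the fall (-0.54) was called.

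The 4 other base subunits were the least uniform class. RPN1 ended at -0.89, RPN10 at -1.73, RPN13 at -0.49 and RPN2 at -0.06, and RPN2 was the only one of the 4 not called at 50 to 60 min on the TMM scale. RPN10 (YHR200W) is a ubiquitin receptor. In culture 1 it had 237 and 223, then 248, 256, 198, 130.4, 64.6 and 52.0 CPM, and in culture 2 it had 212 and 232, then 259, 281, 217, 152, 101 and 82.1. It was above its untreated range up to 20 min and below it from 30 min on, with a last change of -1.73 (SE 0.16, adjusted p = 1.62e-09, edgeR).

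RPN2 (YIL075C) is the large scaffold subunit that binds Rpn13. It stood at 207 and 205 CPM in culture 1, then at 207, 225, 242, 222, 187 and 178. In culture 2 it stood at 159 and 165, then at 166, 179, 236, 203, 193 and 174. The untreated levels differed between the cultures, and in both the peak came at 20 to 30 min, where the change of 0.38 was called (adjusted p = 0.0266, edgeR). The last change was -0.06 on the TMM scale (adjusted p = 0.711) and 0.75 on library totals (adjusted p = 0.000557). Leaving out the first or the second untreated library of culture 1 gave 0.04 and 0.02 on the TMM scale, not called.

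In the lid, 7 of the 8 subunits listed here were called lower at 50 to 60 min on the TMM scale (class median -1.37). They were RPN5 at -0.89, RPN8 at -1.23, RPN6 at -1.34, RPN12 at -1.40, RPN3 at -1.49, RPN11 at -1.62 and RPN9 at -1.68. RPN11 (YFR004W) is the deubiquitinase of the particle. Culture 1 had 159 and 151 CPM before rapamycin and 173, 159.7, 109, 63.5, 44.4 and 37.2 after it. Culture 2 had 162 and 179, then 198, 195, 131, 99.0, 82.3 and 66.3. From 20 min on RPN11 lay below its untreated range in both cultures, lower in culture 1, and the last change was -1.62 (SE 0.25, adjusted p = 4.49e-06, edgeR).

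RPN9 (YDR427W), a structural lid subunit, fell from 155 and 145 to 159, 153, 109, 73.0, 45.4 and 37.0 CPM in culture 1. In culture 2 it fell from 139 and 161 to 163, 171, 129.7, 93.0, 65.3 and 55.1. It was called lower at 20 to 30 min (-0.33) and ended at -1.68 (SE 0.15, adjusted p = 1.32e-09, edgeR).

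RPN7 (YPR108W), needed for the integrity of the lid, departed furthest from the others. In culture 1 it had 119 and 133 CPM before rapamycin and 132, 183, 209, 179, 140.3 and 119.5 after it. In culture 2 it had 106 and 111, then 117, 172, 201, 172, 145 and 124. Both cultures peaked at 20 to 30 min, and in the last interval culture 1 was within its untreated range and culture 2 above its own. RPN7 was called higher at 10 to 20 min (0.60, SE 0.11, adjusted p = 7.67e-05, edgeR). In the next 3 intervals it was also called higher, by 0.81 (adjusted p = 1.17e-06), 0.58 (adjusted p = 7.43e-05) and 0.28 (adjusted p = 0.0280). At 50 to 60 min it was at 0.06 on the TMM scale (adjusted p = 0.653) and at 0.88 on library totals (adjusted p = 1.54e-05). The call at 40 to 50 min was lost, leaving 0 subunits called higher, when either untreated library of culture 2 or the treated library of either culture was left out. The last value was -0.004 if the second untreated library of culture 2 was left out and -0.065 if its treated library was.

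**Figure D3:**
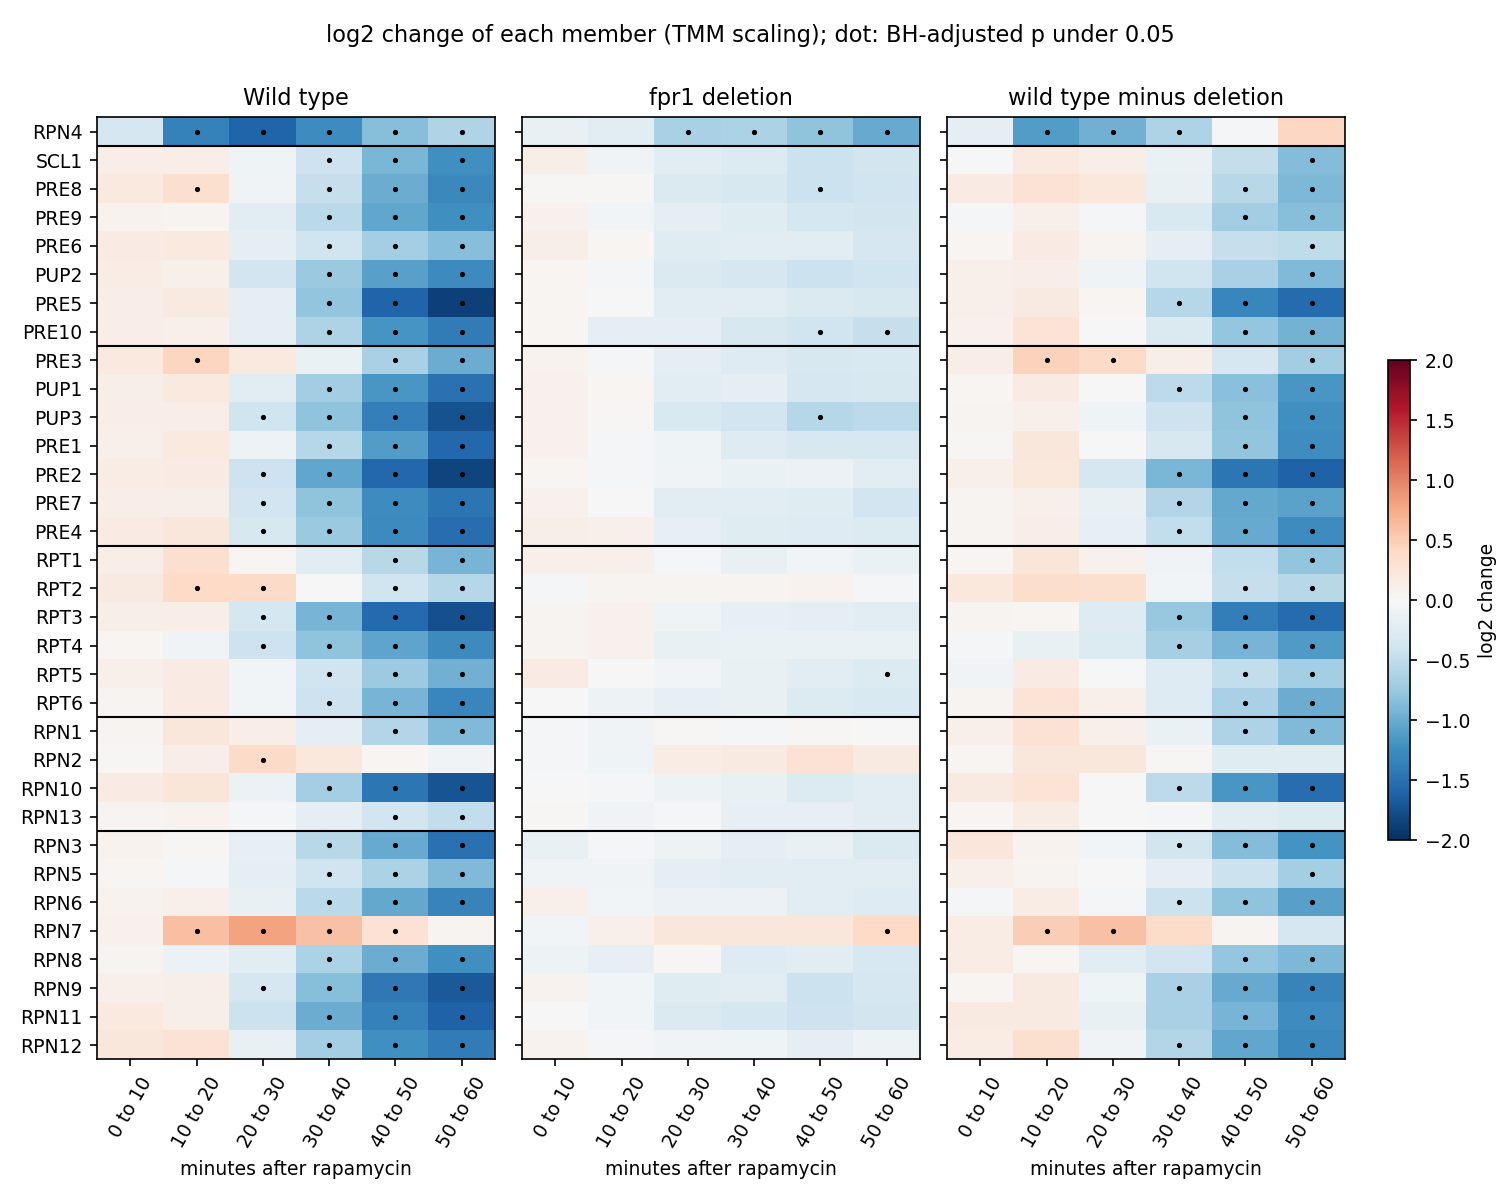
Log2 change on the TMM scale (colour, red higher, blue lower) of each of the 33 genes (rows, with lines between RPN4, alpha, beta, base ATPase, other base and lid subunits) by interval after rapamycin (x axis, min), in the wild type, in the deletion and as their difference, with a dot where the adjusted p is below 0.05. RPN7 is red where the other lid subunits turn blue, and PRE5, PRE2 and RPT3 end lowest, at -1.86, -1.84 and -1.76.

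Across the 16 wild-type sums, 29 of the 32 subunits tracked the mean of all subunits with Pearson's r of 0.949 to 0.998, as a description in which all genes share libraries and depth. RPT2 had r = 0.888, RPN2 0.143, RPN7 0.114 and RPN4 0.108. The mean includes each subunit itself. Among 4799 genes, those with the level course most like that of the subunit mean were ERG20 (a farnesyl diphosphate synthase), UMP1 (the chaperone of 20S maturation), RDL2, GPX2 and CUZ1, with r of 0.995 to 0.985 over the 16 sums. Among those most like RPN4 were KAE1, TAH18, LYS4 and NRP1, with r of 0.985 to 0.974.

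The steps between successive intervals show when the subunits fell. Between 0 to 10 and 10 to 20 min 1 subunit, RPN7, was called, at 0.51, where 39.1% of all genes were called in either direction by edgeR. Into 20 to 30 min 7 of 32 fell (background 14.1%), into 30 to 40 min 12 (background 5.14%) and into 40 to 50 min 10 (background 2.32%), with medians of -0.30, -0.39 and -0.48. Into 50 to 60 min none was called by edgeR (background 0.288%; 7 of 32 had an unadjusted p under 0.05 and DESeq2 called 2), with a median of -0.26. On library totals and per cell these 3 counts were 0. Without single libraries they moved widely: the 7 became 4, 0, 1 and 2 (leaving out culture 1 or 2 of the earlier interval, or culture 1 or 2 of the later one), and the 12 became 3, 2, 1 and 6 in the same order for the next pair of intervals. The 10 became 5, 1, 1 and 21, and the last count became 2 if the final library of culture 2 was left out. With the culture number as a block the 3 counts were 18, 21 and 21.

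In the deletion strains the median log2 changes of the subunits in the 6 intervals were 0.05, -0.03, -0.15, -0.20, -0.24 and -0.29 on the TMM scale, and the sign turned per cell. As UMIs per cell the medians were -0.03, 0.34, 0.27, 0.43, 0.51 and 0.36, with all 32 above 0 from 10 min on in the fit over both cultures. The all-gene medians were -0.09, 0.36, 0.43, 0.65, 0.80 and 0.69. On that scale RPT2, RPN1, RPN2 and RPN7 were called higher at 40 to 50 min (46.9% of all genes) and RPN2 and RPN7 at 50 to 60 min (29.5%), and none lower. By culture, the per-cell median at 50 to 60 min was 0.90 in culture 1 and -0.17 in culture 2. All 32 lay above 0 from 10 min on in culture 1. In culture 2 all 32 did at 10 to 20 and 30 to 40 min, but 18 at 20 to 30, 30 at 40 to 50 and 7 at 50 to 60 min. On the TMM scale no subunit was called in the first 4 intervals in edgeR's test, although 0, 0, 1 and 5 of the 32 had an unadjusted p under 0.05 and DESeq2 called 0, 0, 0 and 1. Of all genes 0%, 0%, 3.05% and 4.60% were called in either direction. At 40 to 50 min PRE8, PRE10 and PUP3 were called lower, 3 of 32, with a background of 11.8%. At 50 to 60 min PRE10 (-0.46) and RPT5 (-0.28) were called lower and RPN7 higher (0.40), with a background of 11.5%. The deletion counts were close to the background in both intervals. With the culture number as a block 11 and 14 subunits were called, and DESeq2 called 10 and 12. The shares of all genes called under these settings are not given here, so these counts cannot be set against a background.

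The deletion counts rested on single libraries. At 40 to 50 min the 3 became 1 or 0 without the first or the second untreated sum of culture 1, 1 without the second untreated sum of culture 2 and 0 without the treated sum of culture 1. At 50 to 60 min they became 1 without the first untreated sum of culture 1 or the second of culture 2, and 0 without the treated sum of culture 2. RPN7 in the deletion had 119.7 and 112 CPM before rapamycin and 146 in the last interval in culture 1, and 114 and 105 before and 151 in culture 2. The treated value was the highest of each culture, but the call was lost without any 1 of 5 of the 6 sums in the contrast, with adjusted p of 0.0612 to 0.245.

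By the end, most subunits had fallen further in the wild type than in the deletion on the TMM scale. The interaction medians on the TMM scale were 0.06, 0.17, -0.01, -0.34, -0.77 and -0.97. The number called lower was 12, 23 and 29 of 32 in the last 3 intervals, with 27.5%, 29.2% and 30.8% of all genes called lower. On library totals the counts were 0, 1 and 5 (13.4%, 13.7% and 14.7% of all genes), with medians of 0.31, -0.08 and -0.32, and 4 and 1 were called higher in the first 2 of these intervals (46.2% and 47.4%). Per cell they were 1, 8 and 27 (22.2%, 20.0% and 31.2%). The 12 became 7 if the second untreated library of culture 2 was left out and 5 if the treated library of culture 1 was, and 19 with the library as a block. RPN2, RPN7 and RPN13 were those not called at 50 to 60 min, at -0.24, -0.34 and -0.27.

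Among the named subunits the interaction at 50 to 60 min was -1.54 for PRE5, -1.55 for RPT3, -1.53 for RPN10, -1.34 for RPN9, -1.25 for RPN11 (adjusted p = 0.00305, edgeR) and -1.17 for PUP1. It was smaller in size for PRE3 (-0.70, adjusted p = 0.000634), RPT2 (-0.55, adjusted p = 0.00213) and PRE6 (-0.51, adjusted p = 0.0461). On library totals PUP1 (-0.52), RPN9 (-0.68), RPN11 (-0.61) and PRE3 (-0.05, adjusted p = 0.905) were smaller in size and not called, and RPT2 (0.09) and PRE6 (0.14) changed sign without a call. The PRE6 call was lost without any 1 of 5 libraries, with adjusted p of 0.0547 to 0.297, and per cell (adjusted p = 0.0798), where RPT2 also lost its call (adjusted p = 0.0532).

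The early rise also differed between the genotypes for a pair of subunits. The interactions of PRE3 and RPN7 were called higher at 10 to 20 min, at 0.46 (adjusted p = 0.0260, edgeR) and 0.50 (adjusted p = 0.0236), where 16.6% of all genes were called higher. At 20 to 30 min they were 0.39 (adjusted p = 0.0488) and 0.58 (adjusted p = 0.00762), where 19.7% were. A count of 2 of 32 lies below both backgrounds. The 2 at 10 to 20 min became 1 if the first untreated library of culture 1 was left out and 0 if either untreated library or the treated library of culture 2 was. The 2 in the next interval became 1 without any of the 4 untreated libraries or the treated one of culture 1, and 0 without the treated one of culture 2. With the library as a block 5 were called at 10 to 20 min, and per cell both counts were 0.

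A random 1000 UMIs were kept of each cell, and 7353 wild-type and 607 deletion cells with fewer were not used. In wild-type culture 1 the mean number of subunit UMIs per 1000 was 5.74 and 5.48 before rapamycin, then 6.75, 7.99, 7.71, 6.05, 4.27 and 3.45. Culture 2 had 5.44 and 5.72, then 6.76, 8.84, 9.16, 8.21, 7.10 and 5.80. In the first untreated interval of culture 1 the 5th, 50th and 95th percentiles over cells were 2, 5 and 11 UMIs. At 10 to 20 min they were 3, 8 and 14, and at 50 to 60 min 1, 3 and 7. The percentiles moved with the mean, and at so few UMIs a cell they also reflect counting error, so whether all cells moved alike cannot be read from them. Deletion cells had means of 5.83 and 4.65 in the first and the last interval of culture 1 and of 6.14 and 6.42 in culture 2.

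RPN4 was too sparse for a level per cell, and its mean over cells gave the course on the scale of library totals. In wild-type culture 1 it was 0.0735 and 0.0662 UMIs per 1000, then 0.0619, 0.0349, 0.0341, 0.0421, 0.0584 and 0.0769. In culture 2 it was 0.0796 and 0.0777, then 0.0659, 0.0397, 0.0451, 0.0658, 0.0881 and 0.0963. It was lowest at 20 to 30 min in culture 1 and at 10 to 20 min in culture 2, and in the last interval above both untreated values of its culture.

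**Figure D4:**
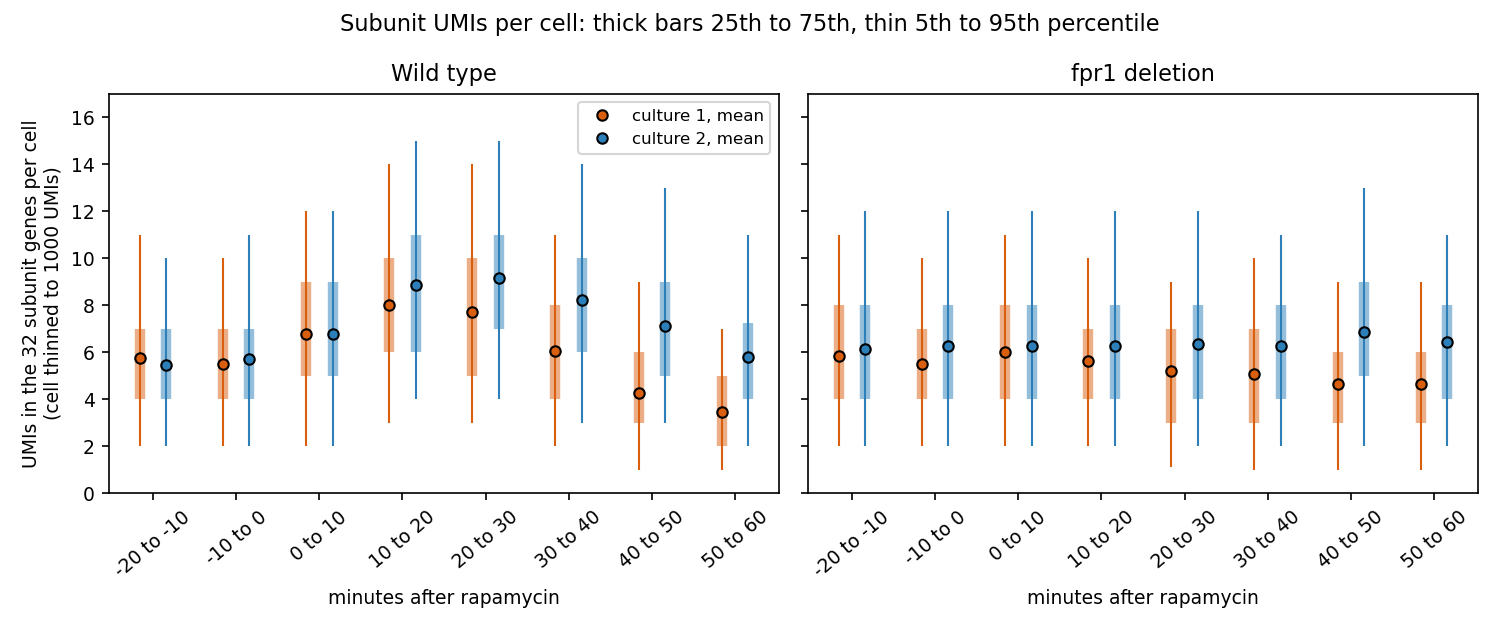
UMIs in the 32 subunit genes per cell after keeping 1000 UMIs of each cell (y axis) by interval around rapamycin (x axis, min), for both cultures of the wild type (left) and the deletion (right); points are means, thick bars the 25th to 75th and thin bars the 5th to 95th percentiles over cells. In wild-type culture 1 the mean moves from 5.74 to 7.99 and then to 3.45, and the percentiles move with the mean.

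The bulk cultures, a separate wild-type experiment, were shallow, at 3800 to 111293 counts per library (median 41501), and 16 of the 32 subunits passed the filter on low counts. RPN4 had 3 counts in all 33 bulk libraries and was not testable there. Bulk counts differed more between genes than single-cell levels did. RPN7 had 10 and RPT1 13 bulk counts in all, against 2182 for PRE10 and 2080 for PRE6. Their untreated wild-type means in the single cells were 117, 200, 294 and 392 CPM, and that of RPN4 was 95.8. Why these genes differed in bulk was not tested. As a share of all counts the 32 genes took 0.836%, 0.398% and 0.516% in cultures 1, 2 and 3 at 0 min. At 10 min they took 0.880%, 0.831% and 0.791%, and at 30 min 1.16%, 1.14% and 1.07%. At 60 min they took 0.588%, 0.437% and 0.491%, and at 120 min 1.25%, 0.991% and 0.945%. In each of the 3 cultures the share was higher at 30 min than at 0 and at 60 min, and higher again at 120 min than at 60 min, while at 0 min culture 1 stood apart from the other two. The means were 0.584% ± 0.226 (SD, n = 3), 0.834% ± 0.0444, 1.12% ± 0.0496, 0.506% ± 0.0763 and 1.06% ± 0.166 at these 5 times. The bulk sampling shares its first hour with the single-cell series, and its last 2 times fall after the last single-cell interval.

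Of the 16 subunits tested in bulk, none was called by edgeR or DESeq2 at 2.5 min (background 0%) or at 5 min (background 1.21%), where 0 and 2 had an unadjusted p under 0.05 in edgeR's test. The number called higher was 2 at 7.5 min (PRE10 and RPN6, background 2.42%), 4 at 10 min (those and PRE7 and RPT5, background 5.16%), 7 at 15 min (6.59%), 6 at 30 min (9.89%) and 3 at 45 min (PRE10, PRE7 and RPT5, background 12.7%). At 60 min 1 was called higher (PRE8, background 18.2%) and 2 lower (24.3%), at 90 min 4 higher (PRE8, RPT5, RPN6 and RPN12, background 22.1%) and at 120 min 8 higher (23.5%), by edgeR over 910 genes. PRE10 (alpha7) had 920.3, 392 and 1047 CPM at 0 min, 1963, 2537 and 1602 at 30 min, 1129, 411 and 937 at 60 min and 1549.7, 1992 and 1882 at 120 min. Its changes were 1.48 at 30 min (adjusted p = 0.00244, edgeR) and 1.29 at 120 min, both calls lost without culture 2. RPN6, a lid subunit, had 460.1, 90.5 and 58.1 at 0 min, 601, 722 and 582 at 30 min and 716, 721 and 477 at 120 min. Its changes were 2.13 (adjusted p = 0.00225) and 2.12 (adjusted p = 0.00103), both calls lost without culture 2. The 0 min libraries held 8017, 41406 and 23822 counts in all, so the 0 min levels of RPN6 rest on few counts.

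PRE8, the subunit called higher at 60 min in bulk (2.11), had 230.1, 60.3 and 58.1 CPM at 0 min and 582, 329 and 162 at 60 min, higher in each culture. These 0 min levels rest on few counts, as those of RPN6 do. In the single cells PRE8 was at -1.29 at 50 to 60 min. The experiments also differed over the subunits as a set on the TMM scale. The bulk median of the 16 tested was 1.14 at 30 min, 0.94 at 45 min and 0.38 at 60 min. Over all 32, without the filter on low counts, it was 1.17, 0.55 and 0.31. The single-cell medians of all 32 in cultures 1 and 2 were -0.25 and -0.10 at 20 to 30 min. At 50 to 60 min they were -1.58 and -1.12. The TMM factors were computed over other sets of genes in the 2 experiments, 910 in bulk and 5549 in the single cells. These differences between the experiments were not tested. The lower calls in bulk at 60 min were PRE6 (-1.43, adjusted p = 0.00758, edgeR) and PRE5 (-1.80, adjusted p = 0.0126). PRE6 had 805, 1991 and 1744 CPM at 0 min and 376, 821 and 711 at 60 min. Both calls were lost with the size factors of DESeq2, at -0.90 and -1.29. PRE6 lost its call without any 1 culture, and PRE5 without culture 1 or 3. The bulk counts leaned on culture 2: without it no subunit was called from 7.5 to 45 min or at 90 min, 1 was at 60 min and 3 were at 120 min. The filter was rerun without each culture, so the genes tested also changed, to 876, 993 and 1015 without cultures 1, 2 and 3. Without culture 1 the counts were 1 at 7.5 min, 6 at 45 min, 0 at 60 min and 2 at 90 min, and without culture 3 they were 0 at 7.5 min, 1 at 10 min, 4 at 15 min and 5 at 45 min.

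**Figure D5:**
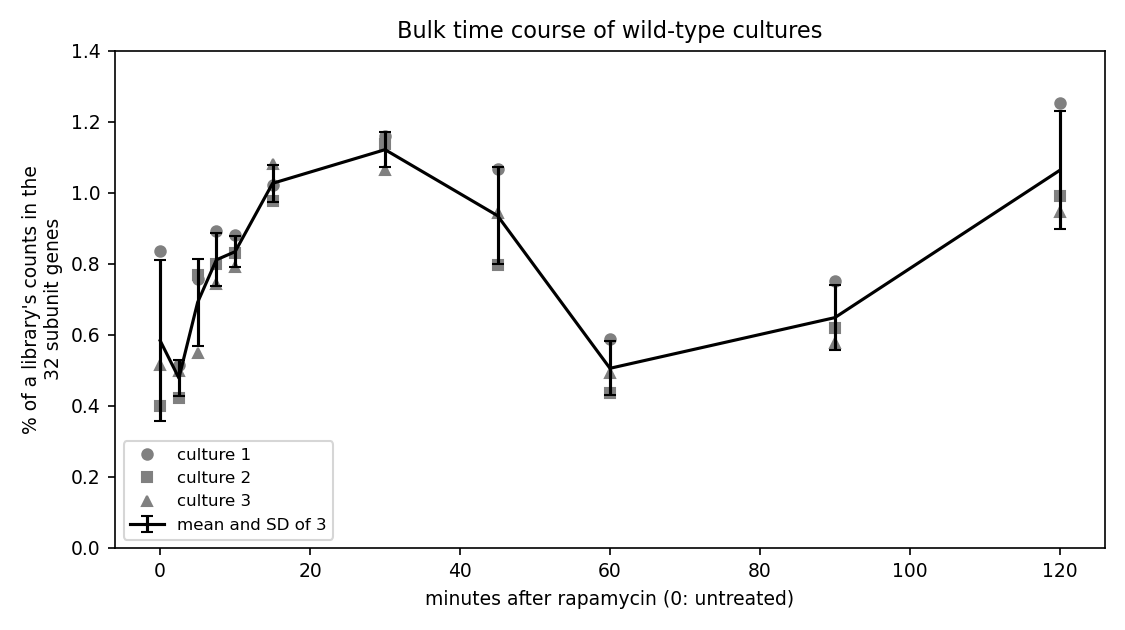
Share of all bulk counts that fell on the 32 subunit genes (y axis, percent) over time after rapamycin (x axis, min), with a symbol for each of the 3 cultures and a line for their mean with SD bars. The mean share is 1.12% at 30 min, 0.506% at 60 min and 1.06% at 120 min.

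The genes that build and serve the proteasome were mixed. Of 18 assembly and associated genes, 10 were called higher and 2 lower in the wild type at 10 to 20 min on the TMM scale (median 0.44; 32.2% and 28.5% of all genes). By the last interval 6 were higher and 9 lower (median -0.25; 41.9% and 36.0% of all genes). On library totals 12 were higher and 0 lower at 10 to 20 min, where 48.8% of all genes were higher, and 9 were higher and 2 lower at the end (median 0.58; 64.8% and 17.1% of all genes). TMA17, the stress-induced chaperone of the base, rose from means of 23.5 and 21.3 CPM before rapamycin to 156 and 169.6 at 10 to 20 min and had 144 and 168 at 50 to 60 min. Its changes were 2.87 (adjusted p = 1.27e-11, edgeR) and 2.81. SPG5, a proteasome regulator of stationary phase in yeast, rose by 0.83 and 1.28.

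UMP1, the chaperone of core maturation, went the way of the subunits, with 257 and 271 CPM before, 283 and 326 at 10 to 20 min and 97.9 and 125 at 50 to 60 min. Its final change was -1.24 (adjusted p = 1.4e-09, edgeR), and -0.41 and not called on library totals. The core chaperones PBA1 and POC4 ended at -1.61 and -1.56, and POC4 was already lower at 10 to 20 min (-0.37; 0.03 on library totals; adjusted p = 0.109 without the treated library of culture 1). BLM10, an alternative activator of the core, ended at -0.77 (adjusted p = 0.000119) and at 0.05 on library totals.

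Of 28 genes of the ubiquitin system, 15 were called higher and 2 lower at 10 to 20 min (median 0.37; 32.2% and 28.5% of all genes). In the last interval 9 were higher and 10 lower (median -0.08), shares below and close to the 41.9% and 36.0% of all genes. On library totals the counts were 21 and 1, then 19 and 2 (median 0.75), where 48.8% and then 64.8% of all genes were higher. UBI4, the polyubiquitin gene, stood at 55.9 and 51.7 CPM before rapamycin, at 473 and 566 at 10 to 20 min and at 481 and 473 at 50 to 60 min. It rose by 3.28 (adjusted p = 4.66e-13, edgeR) and 3.16. DOA4, a deubiquitinase that recycles ubiquitin, rose by 0.91 and 1.50. The ubiquitin-conjugating enzyme gene UBC4 and the shuttle factor gene RAD23 were not called at 10 to 20 min and ended at -1.78 and -1.71.

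Of 5 known regulators of RPN4 or of proteasome abundance, 1 was called higher at 10 to 20 min (32.2% of all genes), and 3 were called higher and 1 lower at 50 to 60 min (41.9% and 36.0% of all genes), with a median of 0.77. On library totals all 5 were higher, as were 64.8% of all genes. SLT2, which encodes the kinase named above, rose from 68.9 and 62.7 CPM to 132 and 118 at 10 to 20 min and 522 and 471 at 50 to 60 min, changes of 0.92 and 2.91. HSF1 and PDR3, which encode activators of RPN4 in yeast, ended at 0.93 and 0.77, and YAP1, another, at -0.35 and at 0.47 on library totals. No PDR element (TCCGCGGA), Yap1 element (TTACTAA or TTAGTAA) or stress response element (AGGGG) was in the window of RPN4 on either strand, and a Yap1 element was within 500 bases before its start codon.

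Subunits with and without an exact match to the PACE letters ended alike in the wild type. At 50 to 60 min 25 of the 27 with it were called lower on the TMM scale (median -1.29), as were 5 of the 5 without it (median -1.49). The difference was not tested. The 5 without it held near matches, so the split is not one of presence against absence of the element. A further 44 genes had PACE in their window, 7 of them because they share the site of a neighbouring subunit gene. Of these 44, 25 were called higher and 5 lower at 10 to 20 min (median 0.40; 32.2% and 28.5% of all genes). In the final interval 14 were higher and 20 lower (median -0.10; 41.9% and 36.0% of all genes). Among them, CUZ1, whose protein binds the proteasome, changed by 0.36 and -1.93, ECM29, which tethers core and regulatory particle, by 0.81 and -1.06, and CDC48, the segregase gene, by 0.38 and -0.46 in these intervals. UBA1, the ubiquitin-activating enzyme gene, changed by 0.35 and was at 0.17, not called, at the end. UBI4 is also among these 44.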

How the data were processed

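The 33 genes, the lists of related genes and the tests were chosen with earlier results of these data known. Per the labels' protocols, single-cell libraries were made with 10x Chromium 3′ chemistry (v3.1); the submitters' processing notes name sacCer3, kallisto 0.46.1, bustools 0.39.3 and bcl2fastq without their roles. The authors deposited raw UMI counts per cell with genotype, interval and culture assigned to each cell, and raw bulk counts per gene and library (UMIs or reads is not given). The sources used here do not give the annotation, the cell filter or the genotype calling. Doublets were not called here.

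UMIs were summed per genotype and library, so that sums, not cells, were the replicates. The sums were filtered with filterByExpr (5549 genes), normalized by TMM, with factors of 0.788 to 1.62. Tests used edgeR 4.0.16 in R 4.3.3 (robust quasi-likelihood F-test, 16 residual degrees of freedom, biological coefficient of variation 14.1%), with p-values adjusted over all genes by the Benjamini-Hochberg method. Bulk counts were treated alike (910 genes, 22 residual degrees of freedom, 29.7%). The fit was tested on simulated, independent sums in which few genes changed. Such sums do not stand for correlated cultures or for a response of many genes, as in these data. The 2 single-cell cultures are replicate experiments per the labels, and p-values measure the spread between sums. Because each culture was sampled throughout, culture numbers pair the sums: deviations from the group means correlated within a culture with a median r of 0.264 in the wild type and 0.295 in the deletion, and between genotypes of a library with 0.441. Alternatives were other normalizations, no filter, DESeq2 1.42.0, blocks, another baseline, fewer sums, thinning and leaving out libraries.

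Genes given library by library were RPN4, the subunits with active sites, RPN11 and the highest and lowest member of each class at 50 to 60 min, where the subunit median was largest in size. Of the related lists, those called with the largest and smallest changes at that interval were named, with UMP1, BLM10, TMA17, UBI4 and SLT2; genes alike in level needed a mean CPM of 10, and 1 of them is not reported here. Genes named beside the PACE matches were chosen after their values were seen. Promoter windows were read from the RefSeq R64 genome, whose chromosome lengths are those of sacCer3. No member overlaps another annotated gene, and 17 have a convergent neighbour. The 16 genotype PCR libraries were not analysed here.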

Additional observations from a re-analysis of the deposited data

Results flagged for a closer look

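Interactions in edgeR's test that differed between the genotypes under the same drug were flagged for RPN4 at 10 to 20 min (-1.12), 20 to 30 min (-0.97) and 30 to 40 min (-0.62), where its wild-type level fell further than in the deletion. At 10 to 20 min PRE3 (0.46) and RPN7 (0.50) rose in the wild type relative to the deletion. At 50 to 60 min the wild-type change was lower than the deletion change for PRE5 (-1.54), PRE6 (-0.51), PRE2 (-1.61), PRE3 (-0.70) and PUP1 (-1.17). The same held for RPT2 (-0.55), RPT3 (-1.55), RPN9 (-1.34), RPN10 (-1.53) and RPN11 (-1.25). All values are log2 differences on the TMM scale, and no explanation for them was tested.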

How the results depend on the processing

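These values changed sign on library totals: RPN4 in the wild type at 40 to 50 min (0.0224) and 50 to 60 min (0.22) and its interaction at 30 to 40 min (0.0265), PRE6 in the interaction at 50 to 60 min (0.14), RPT2 in the wild type and the interaction at 50 to 60 min (0.26 and 0.0920), RPN2 in the wild type at 50 to 60 min (0.75), POC4 at 10 to 20 min (0.0250), BLM10 at 10 to 20 and 50 to 60 min (0.39 and 0.0524) and YAP1 in the wild type and the interaction at 50 to 60 min (0.47 and 0.35). By construction, library totals leave in the shift of all genes that TMM removes. Other causes were not tested. Per cell, the deletion's subunit medians and its RPN4 change at 10 to 20 min (0.14) also changed sign.

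Counts of subunits moved by more than 1.5 times as follows. For settings other than the main fit, library totals and UMIs per cell, the shares of all genes called are not given here. On library totals, wild-type counts called higher were 21, 16, 8, 4 and 2 in the last 5 intervals, and those called lower 0, 0, 5 and 15 in the last 4; the deletion had 0 and 1 in the last 2; the interaction had 5, 5, 4 and 1 higher from 10 to 50 min and 0, 1 and 5 lower from 30 to 60 min; the steps from 20 to 50 min had 0 each. Per cell, wild-type counts higher were 1, 1, 0 and 0 from 10 to 50 min and lower 0, 1 and 6 from 20 to 50 min; the interaction had 0 and 0 higher from 10 to 30 min and 1 and 8 lower from 30 to 50 min; the steps from 10 to 50 min had 0 each. With RLE size factors, the wild type had 0 higher at 40 to 50 min, the deletion 1, 10 and 8 from 30 to 60 min, the interaction 1 higher at 20 to 30 min, and bulk 1 at 7.5 and 5 at 45 min. Without a filter, the wild type had 0 higher at 40 to 50 min, the deletion 7 at 50 to 60 min, the interaction 1 higher at 10 to 20 and at 20 to 30 min, and bulk 1, 1, 1 and 2 at 7.5, 45, 60 and 90 min. DESeq2 called 11 lower at 20 to 30 min, 1, 10 and 12 in the deletion from 30 to 60 min, 12 and 2 in the steps to 20 to 30 and 50 to 60 min, and 5 in bulk at 45 min. With the last untreated interval as baseline, the wild type had 0 higher at 40 to 50 min, the deletion 1 and 1 in the last 2 intervals, and the interaction 1 and 0 higher from 10 to 30 min and 6 lower at 30 to 40 min. With only the groups compared, the wild type had 13 lower at 20 to 30 min and 0 higher at 40 to 50 min, and the deletion 0 and 0 in the last 2 intervals. Thinned to equal depth, there were 1 lower at 20 to 30 min, 0 and 1 in the deletion, 6 lower in the interaction at 30 to 40 min, and 3, 5 and 4 in the steps from 20 to 50 min. Without the top 5% of cells the interaction had 1 higher at 20 to 30 min and the step to 20 to 30 min 4. With the wild-type share subtracted, the deletion had 0 at 40 to 50 min.

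With the culture as a replicate block, wild-type counts were 8 higher at 10 to 20 min and 11 lower at 20 to 30 min, the deletion had 2, 11 and 14 from 30 to 60 min, the interaction 1 lower at 20 to 30 and 1 higher at 30 to 40 min, and the steps 2, 18, 21, 21 and 1. With the library as a block the interaction had 5 higher at 10 to 20 min, 2 lower at 20 to 30 min, and 1 higher and 19 lower at 30 to 40 min. The blocks also changed calls of PBA1 and UMP1 at 10 to 20 min, PRE3 and PRE5 in the deletion and RPN2 and RPN7 in the interaction at 50 to 60 min, and moved no other count by that much.

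Leaving out 1 library at a time, wild-type counts ran 3 to 4, 2 to 3, 1 to 2 and 0 to 1 higher from 10 to 50 min and 2 to 7, 20 to 25, 28 to 30 and 30 to 30 lower from 20 to 60 min; the deletion 0 to 1, 0 to 2 and 0 to 3 from 30 to 60 min; the interaction 0 to 2 and 0 to 1 higher from 10 to 30 min and 5 to 10, 16 to 28 and 25 to 29 lower from 30 to 60 min; the steps 1 to 1, 0 to 4, 1 to 6, 1 to 21 and 0 to 2; and bulk 0 to 1, 0 to 1, 0 to 3, 0 to 5, 0 to 7, 0 to 6, 0 to 3, 0 to 4 and 3 to 10 from 5 to 120 min. Where this leaves 1 sum in a group, that sum is assumed to vary like the others. PACE counts were 27 of 32 also with the core GGTGGCAA and within 500 bases, a window chosen after seeing the data. Depth limits RPN4 (116 UMIs in the smallest sum) and the bulk libraries.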
